A study of Mus musculus with 23 samples.

Results

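Myoz2, Mybpc3, Nebl, Actn2, Ldb3, Tcap, Csrp3 and Ttn encode proteins of the Z-disc, the titin filament and the thick filament of heart muscle. Every probe set that the array annotation gives to 1 of these 8 symbols was taken, which made 17 of the 45101 probe sets on the array and 8 of the 18193 genes tested. The values came from 23 single mouse cells, each drawn with a glass micropipette from a culture in DMEM with 10% serum, its RNA amplified and hybridized to 1 Affymetrix array. The study asked what happens to a cell that receives the poly-A RNA of another cell type, a transfer named TIPeR in the labels.

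The 6 astroTIPeR cells were astrocytes transfected with cardiomyocyte RNA by a lipid reagent, and the 2 astroControl cells were mock-transfected astrocytes. The 5 fibroTIPeR cells were fibroblasts transfected with cardiomyocyte RNA, and the 3 fibroControl cells were fibroblasts transfected with fibroblast RNA. The 4 cardiomyocyte and 3 fibroblast cells had no transfection. The 2 control groups therefore differ in kind, since astroControl cells received no RNA and fibroControl cells did. The labels used here do not give strain, age, passage or the time between transfection and collection. They also do not say that cells of a group came from separate cultures or animals. Here n counts cells, and a p-value reflects the cell-to-cell spread on these arrays, which may be technical.

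The sarcomere is the contractile unit of striated muscle. Its actin filaments are anchored at the Z-disc, where alpha-actinin cross-links them, and its myosin thick filaments lie between the Z-discs, each held in place by titin, a giant elastic protein that reaches from the Z-disc to the centre of the sarcomere. Mutations in most of these genes are known causes of inherited cardiomyopathy in humans. Among the Z-disc proteins, Actn2 is the sarcomeric alpha-actinin, Myoz2 (calsarcin-1) tethers the phosphatase calcineurin to alpha-actinin, Nebl (nebulette) is the cardiac relative of nebulin, Ldb3 (Cypher or ZASP) is a PDZ and LIM domain protein that binds alpha-actinin, and Csrp3 is the muscle LIM protein. Tcap (telethonin) caps the Z-disc end of titin, which Ttn encodes. Mybpc3 is the cardiac myosin binding protein C of the thick filament.

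In GRCm38.p6, Myoz2 lies at chr3:123006206-123035003, Mybpc3 at chr2:91118114-91136516, Nebl at chr2:17342673-17734949, Actn2 at chr13:12269426-12340732, Ldb3 at chr14:34526699-34590314, Tcap at chr11:98383811-98384953, Csrp3 at chr7:48830398-48848051 and Ttn at chr2:76703980-76982557. Ttn had 6 probe sets, Nebl and Ldb3 had 3 each, and the other genes had 1 each. The sources used here do not give where along its gene, exon or UTR, a probe set lies.

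The promoter windows below are shown because each of these 4 genes had a probe set that set cardiomyocytes apart from the other cells. They were also picked because each holds a motif of a muscle regulator. For Ldb3 and Ttn, other probe sets gave no such contrast. The windows are RefSeq's on GRCm38.p6, cover 250 bases before to 50 bases after an annotated start, and are written 5′ to 3′ on the gene's strand with the motif in capitals. Of the 8 genes, 7 had a window, with Tcap the exception, and 12 windows were searched on both strands for the MEF2 consensus, an A/T core that the MEF2 factors of muscle bind, and for the CArG box, the binding consensus of serum response factor. The motifs were chosen after the levels were known. The MEF2 consensus was in the windows of Myoz2 (chr3:123034938-123035237, minus strand), Mybpc3 (chr2:91117894-91118193, plus strand) and Ttn (chr2:76982498-76982797, minus strand), where it began 33, 90 and 166 bases before the start. The CArG box was in the window of Ldb3 (chr14:34588632-34588931, minus strand), beginning 35 bases before the start, in a second, overlapping Ldb3 window and in 1 of the 4 Nebl windows. Neither motif was in the windows of Csrp3, which also stood higher in cardiomyocytes, or in that of Actn2. Of the 32851 RefSeq windows, 3.19% held the MEF2 consensus and 1.63% the CArG box. The A/T run in the Myoz2 window also has the letters of a TATA element. No binding was measured in this study, so the matches describe the letters of these windows and nothing more.
Myoz2: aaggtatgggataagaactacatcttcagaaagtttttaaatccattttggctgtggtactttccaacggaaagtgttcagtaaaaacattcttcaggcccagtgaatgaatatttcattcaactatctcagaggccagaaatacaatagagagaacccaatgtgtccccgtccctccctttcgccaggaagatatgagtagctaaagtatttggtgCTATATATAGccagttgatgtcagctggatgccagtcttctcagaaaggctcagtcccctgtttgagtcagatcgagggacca
Mybpc3: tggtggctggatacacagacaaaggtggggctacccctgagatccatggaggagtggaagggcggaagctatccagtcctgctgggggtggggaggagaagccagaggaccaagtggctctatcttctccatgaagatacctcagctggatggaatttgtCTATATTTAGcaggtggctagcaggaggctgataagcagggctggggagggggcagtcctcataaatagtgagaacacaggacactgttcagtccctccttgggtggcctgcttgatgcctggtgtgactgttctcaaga
Ttn: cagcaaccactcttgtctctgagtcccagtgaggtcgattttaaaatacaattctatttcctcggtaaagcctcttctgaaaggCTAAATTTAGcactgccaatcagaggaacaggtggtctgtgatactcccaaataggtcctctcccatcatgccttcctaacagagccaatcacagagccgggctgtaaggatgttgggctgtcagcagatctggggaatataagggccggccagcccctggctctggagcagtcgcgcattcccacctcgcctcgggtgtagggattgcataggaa
Ldb3: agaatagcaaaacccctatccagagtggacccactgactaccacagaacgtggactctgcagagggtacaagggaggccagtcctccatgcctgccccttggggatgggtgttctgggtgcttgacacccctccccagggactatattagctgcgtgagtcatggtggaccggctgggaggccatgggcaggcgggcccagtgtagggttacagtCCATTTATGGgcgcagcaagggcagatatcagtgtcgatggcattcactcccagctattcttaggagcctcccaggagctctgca

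Levels are given on the log2 scale of the deposited values after quantile normalization over the 23 arrays, and differences are in log2 units. The median level over all genes was 5.71. Each gene is first described by 1 probe set, that of highest mean level, and the other probe sets of Nebl, Ldb3 and Ttn follow. Levels were not tested against a background, so a low value cannot be read as expression, and since probes differ in brightness the comparisons are between cells within 1 probe set. The arrays formed 2 sets, 15 of fibroblasts and cardiomyocytes with deposited medians of 5.05 to 5.58 and 8 of astrocytes with medians of 4.28 to 4.56. Each comparison of 2 groups was therefore made within a set. The difference of the transfer effect between fibroblasts and astrocytes combines the 2 sets. That difference and levels set across the sets rest on the normalization. The 6 cardiomyocyte markers used here (Tnni3, Myl2, Myh6, Atp2a2, Pln, Mb) averaged 9.22 to 11.01 in the 4 cardiomyocytes and at most 6.25 in any other cell. Single markers set the cells apart less well. Atp2a2 reached 10.85 in fibroTIPeR and 10.6 in fibroblast cells, and Pln reached 9.65 in astroTIPeR cells, above the lowest cardiomyocyte at 8.06. The 7 fibroblast markers (Vim, Col1a1, Col1a2, Col3a1, Fn1, Thy1, S100a4) averaged 5.04 to 6.15 in cardiomyocytes 1 to 3, against 8.66 to 10.54 in fibroblasts. Cardiomyocyte 4 stood apart from the other cardiomyocytes at 8.13. Thy1 went the other way, with a mean of 8.02 in cardiomyocytes and 6.28 in fibroblasts. Fn1 was alike (5.58 in cardiomyocytes and 5.61 in fibroblasts), and the remaining markers averaged more in fibroblasts. The 6 astrocyte markers averaged 7.03 in astroTIPeR, 6.42 in astroControl, 7.46 in cardiomyocyte and 7.11 in fibroblast cells, so they did not set the cells labelled astrocyte apart. The 3 control probe sets for 18S rRNA averaged 11.03 to 13.48 in fibroTIPeR 1 to 3 and 11.23 to 12.08 in the fibroControl cells, but 7.80 and 7.88 in fibroTIPeR 4 and 5, 6.94 to 8.24 in cardiomyocytes and 7.05 to 8.06 in fibroblasts.

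As a group, the 8 genes were highest in cardiomyocytes. Their mean level per cell was 7.35 to 8.10 in the 4 cardiomyocytes and 5.07 to 5.92 in the 19 other cells. The plot of levels by cell shows the cardiomyocytes apart for Myoz2, Mybpc3, Nebl and Csrp3.

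**Figure D1:**
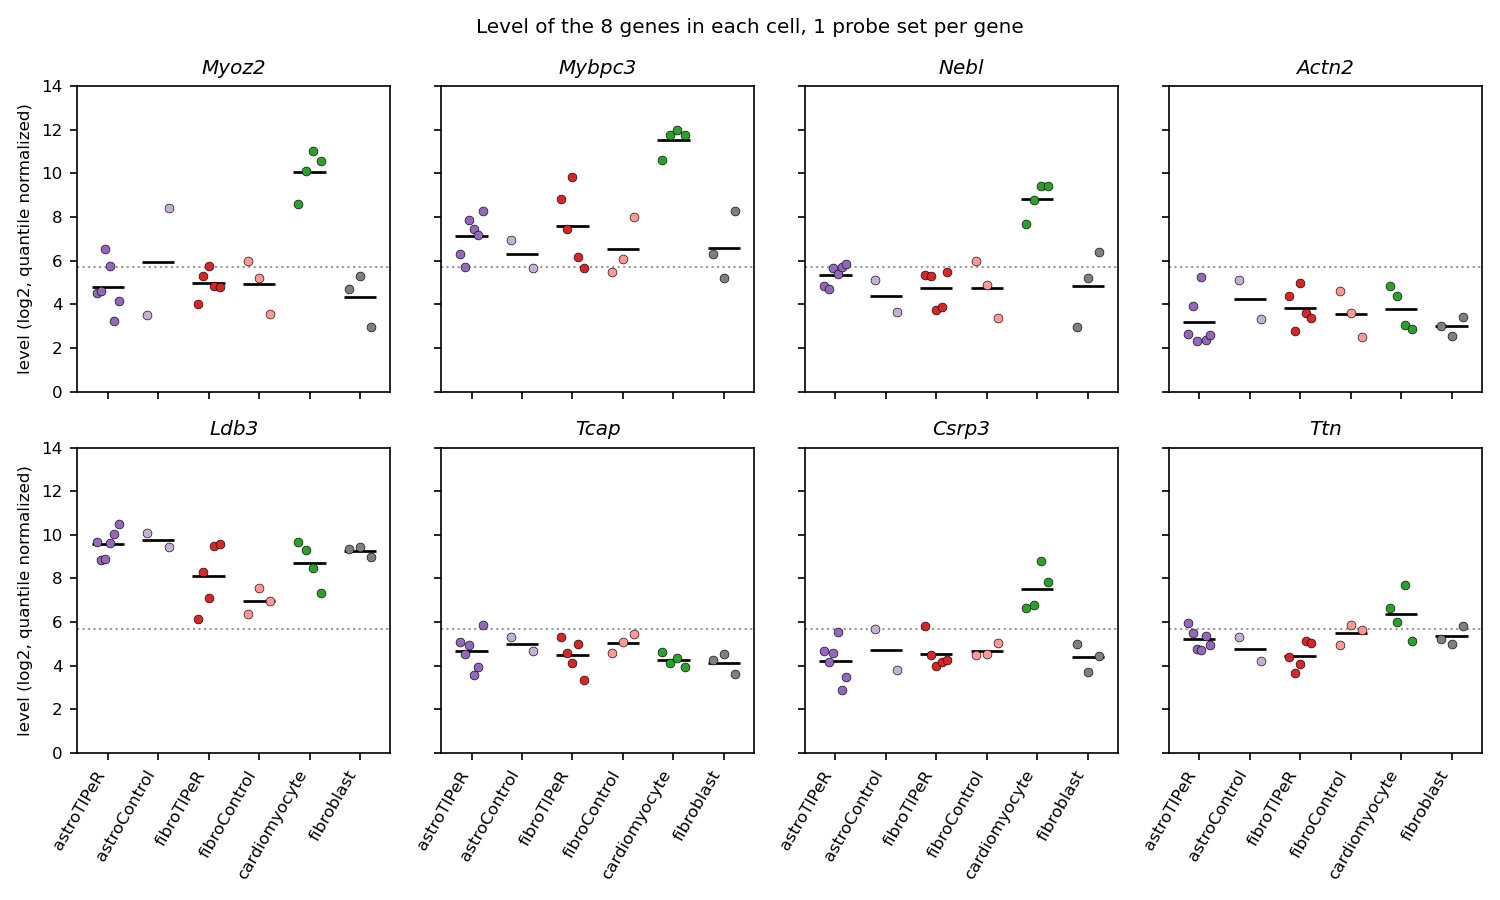
Level of each gene (log2, quantile normalized; 1 probe set per gene) in the 23 cells, by group. Points are cells, black bars are group means and the dotted line is the median level over all genes, 5.71. Myoz2, Mybpc3, Nebl and Csrp3 stand higher in the 4 cardiomyocytes than in the 3 fibroblasts without overlap, while the cardiomyocytes and fibroblasts overlap for Actn2 and Tcap.

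The cardiomyocyte and fibroblast cells without transfection show which of these transcripts separate the donor from the recipient cell type. In cardiomyocytes, Myoz2, Mybpc3, Nebl and Csrp3 were higher than in fibroblasts by 3.12 to 5.76 log2 units, and each passed the test (adjusted p under 0.05, limma). These were 4 of 8 genes, where 0.225% of all genes passed in this comparison. Of all 18193 genes, 18 passed as higher in cardiomyocytes and 23 as lower. The 8 genes were chosen with earlier results of these data known, so their contrast with all genes is a description. The same 4 genes were the ones with every cardiomyocyte above every fibroblast, a separation that 8.41% of all genes showed. The median difference of the 8 genes was 2.06, against 0.09 over all genes, and 7 of 8 differences were positive. Without fibroblast 1, fibroblast 2, cardiomyocyte 3 or cardiomyocyte 4, Myoz2 alone passed of the 8 genes, and without fibroblast 3 Mybpc3 and Nebl did.

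Myoz2 showed the largest difference of the 8. Its levels were 8.61, 10.09, 11.03 and 10.58 in cardiomyocytes 1 to 4, against 4.70, 5.28 and 2.95 in fibroblasts 1 to 3. The lowest cardiomyocyte lay far above the highest fibroblast. The means were 10.08 ± 1.05 (SD, n = 4) in cardiomyocytes and 4.31 ± 1.21 (n = 3) in fibroblasts, a difference of 5.76 (SE 0.95, adjusted p = 0.00351). The call was lost without fibroblast 3 (adjusted p = 0.0651) and held without each of the other 22 cells.

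Mybpc3, the thick filament gene, read 10.63, 11.74, 11.97 and 11.77 in cardiomyocytes, against 6.30, 5.20 and 8.27 in fibroblasts. The 4 cardiomyocytes lay close together, while fibroblast 3 stood above the other fibroblasts. The difference was 4.94 (SE 0.99, adjusted p = 0.0285). It missed the threshold without fibroblast 1, fibroblast 2, cardiomyocyte 2, cardiomyocyte 3 or cardiomyocyte 4, with adjusted p up to 0.139.

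Nebl, measured by 1438452_at, was at 7.66, 8.77, 9.44 and 9.41 in cardiomyocytes and at 2.94, 5.20 and 6.37 in fibroblasts. The groups did not overlap, and fibroblast 1 was the lowest cell of the 23. The difference was 3.98 (SE 0.77, adjusted p = 0.0224), lost without fibroblast 1, fibroblast 2, cardiomyocyte 3 or cardiomyocyte 4 (adjusted p up to 0.146). The other Nebl probe sets gave no such contrast, with means of 3.90 in cardiomyocytes and 4.83 in fibroblasts for 1439897_at, and of 2.66 in cardiomyocytes and 2.09 in fibroblasts for 1451846_at. Averaged over its 3 probe sets, Nebl differed by 1.21 (adjusted p = 0.439).

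Csrp3, the muscle LIM protein, read 6.63, 6.77, 8.82 and 7.83 in cardiomyocytes, against 5.002, 3.74 and 4.43 in fibroblasts. Every cardiomyocyte was above every fibroblast, and the difference was 3.12 (SE 0.67, adjusted p = 0.0389). The call was lost without any 1 of 7 cells (fibroblasts 1 to 3, cardiomyocytes 3 and 4, fibroControl 2, astroTIPeR 2; adjusted p 0.0514 to 0.191) and it passed in 1 of 6 other settings, with the 18S level as a covariate, while the difference stayed between 2.69 and 3.43 throughout.

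Ldb3 and Ttn depended on the probe set. Ldb3 by 1451999_at, its probe set of highest mean, averaged 8.70 in cardiomyocytes and 9.27 in fibroblasts, a difference of -0.56 (adjusted p = 0.856). By 1416752_at, Ldb3 read 6.63, 7.75, 9.19 and 9.57 in cardiomyocytes, against 4.49, 4.12 and 4.57 in fibroblasts. The 3 fibroblasts lay close together and below every cardiomyocyte. Tested among all 45037 probe sets other than controls, of which 0.127% passed, the difference by 1416752_at was 3.89 (SE 0.61, adjusted p = 0.00279). The third Ldb3 probe set, 1433783_at, averaged 4.15 in cardiomyocytes and 5.31 in fibroblasts and did not pass.

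Ttn by 1444638_at averaged 6.36 in cardiomyocytes and 5.35 in fibroblasts, a difference of 1.01 (adjusted p = 0.598). By 1427445_a_at, Ttn read 6.72, 6.47, 7.77 and 7.93 in cardiomyocytes, against 3.97, 3.95 and 3.85 in fibroblasts. The fibroblasts were nearly equal, and every cardiomyocyte lay well above them. The difference was 3.30 (SE 0.54, adjusted p = 0.0043). Another probe set annotated to the same source sequence, 1427446_s_at, averaged 5.63 in cardiomyocytes and 5.77 in fibroblasts, and the remaining 3 Ttn probe sets did not pass either. The calls by Ldb3 1416752_at and Ttn 1427445_a_at held without each of the 23 cells and in each of 4 other settings, with adjusted p up to 0.033 for Ldb3 and up to 0.0448 for Ttn.

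Over the 17 probe sets, 5 passed in this comparison, those of Myoz2 (adjusted p = 0.00544), Mybpc3 (0.031), Nebl 1438452_at (0.031), Ldb3 1416752_at and Ttn 1427445_a_at, all higher in cardiomyocytes, and Csrp3 missed (0.0605). Actn2 and Tcap did not pass in either fit.

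Actn2 and Tcap, each with 1 probe set, did not separate the 2 cell types. Actn2 read 4.81, 4.40, 3.05 and 2.85 in cardiomyocytes, against 3.02, 2.54 and 3.42 in fibroblasts, which overlapped. The difference was 0.79 (95% interval -0.69 to 2.26, adjusted p = 0.752). Tcap read 4.65, 4.13, 4.36 and 3.93 in cardiomyocytes, against 4.25, 4.52 and 3.63 in fibroblasts, with a difference of 0.13 (-1.0 to 1.27, adjusted p = 0.96). The groups overlapped for Tcap too. Both probe sets read low in both cell types. The Actn2 mean exceeded that of 8.16% of all genes in cardiomyocytes and of 2.22% in fibroblasts. For Tcap the shares were 17.7% in cardiomyocytes and 16.3% in fibroblasts. Whether either probe set detects its transcript was not tested.

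**Figure D2:**
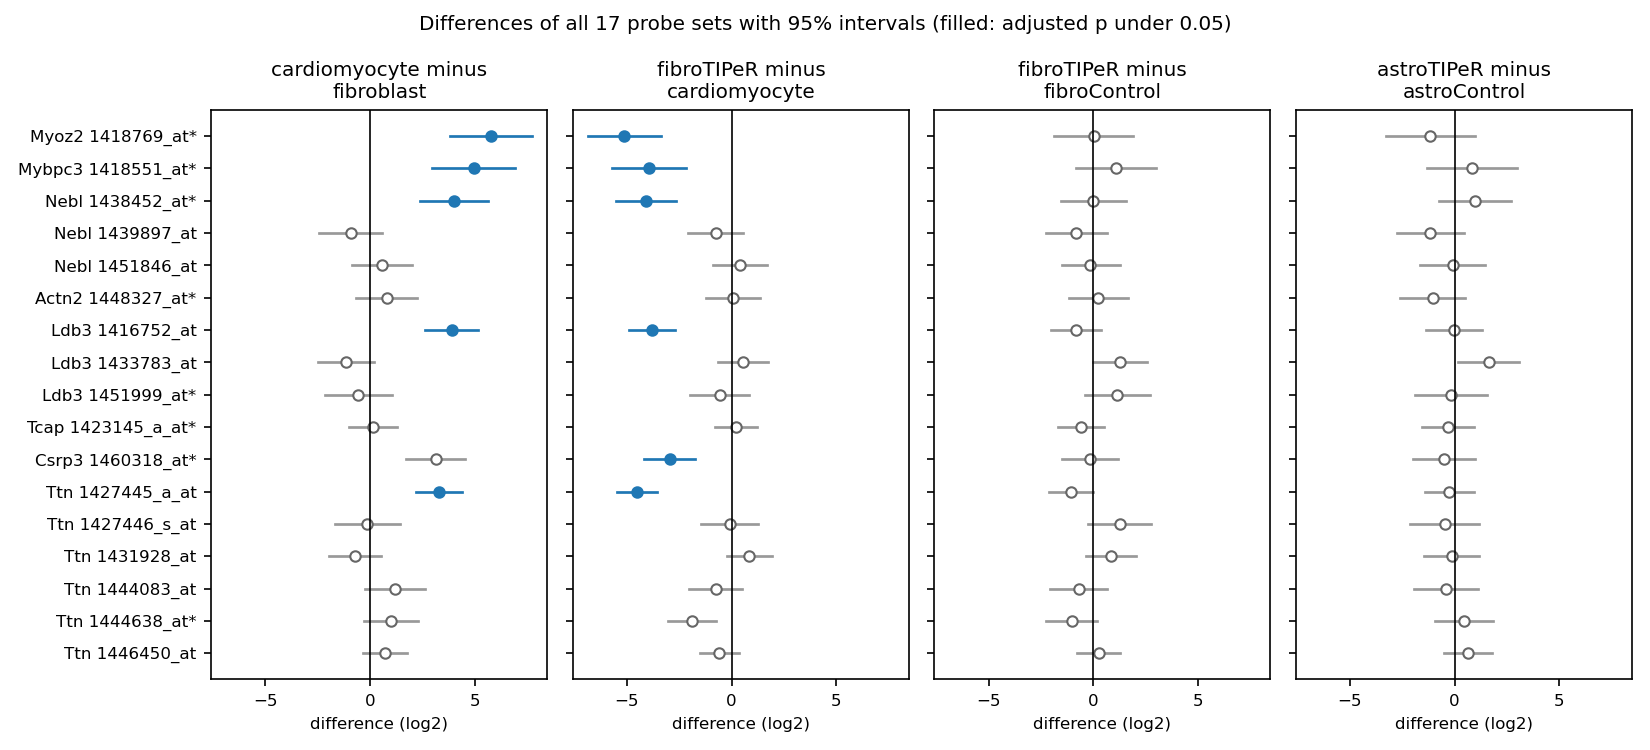
Difference in level (log2 units) of the 17 probe sets in 4 comparisons, named first group minus second group above each panel. Bars are 95% intervals, filled points passed at adjusted p under 0.05 over all probe sets, and an asterisk marks the probe set used for the gene. The 5 filled points in the first panel and 6 in the second lie on opposite sides of 0, and the 2 transfer panels hold none.

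FibroTIPeR cells against fibroControl cells test the transfer in fibroblasts, since both groups were transfected and the labels give a difference in the source of the RNA only. None of the 8 genes passed, where 0.0055% of all genes (1 of 18193) did. None of the 8 had an unadjusted p under 0.05, as 1204 of the 18193 genes did. At that share, none of 8 says little about the members. Of the 17 probe sets none passed either, where 0.00222% of all probe sets did, and 1 had an unadjusted p under 0.05, that of Ldb3 1433783_at with 4.70 in fibroTIPeR and 3.41 in fibroControl cells (adjusted p = 0.78). The median difference of the 8 genes was 0.01, against -0.02 over all genes, and 4 of 8 were positive.

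Myoz2 read 4.03, 5.32, 5.77, 4.85 and 4.81 in fibroTIPeR cells 1 to 5, against 5.99, 5.21 and 3.57 in fibroControl cells 1 to 3. The groups overlapped, and every value lay below the lowest cardiomyocyte. The difference was 0.03, with a 95% interval of -1.83 to 1.90 that does not reach the 5.76 between cardiomyocytes and fibroblasts. Nebl read 5.32, 5.32, 3.73, 3.87 and 5.46 in fibroTIPeR cells, against 5.99, 4.89 and 3.35 in fibroControl cells, a difference of -0.01 (-1.52 to 1.51). Csrp3 read 5.84, 4.49, 3.98, 4.16 and 4.26 in fibroTIPeR cells, against 4.50, 4.52 and 5.04 in fibroControl cells, a difference of -0.14 (-1.45 to 1.17). For these 3 genes the upper end of the interval was below the difference between the donor and recipient cell types.

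The probe sets of Ldb3 and Ttn that separated cardiomyocytes from fibroblasts had lower means in fibroTIPeR than in fibroControl cells, and neither difference passed. Ldb3 by 1416752_at read 4.98, 4.69, 4.15, 3.87 and 4.70 in fibroTIPeR cells, against 5.66, 4.52 and 5.69 in fibroControl cells, a difference of -0.81 (-2.01 to 0.39). Ttn by 1427445_a_at read 2.55, 2.95, 2.59, 1.87 and 3.55 in fibroTIPeR cells, against 3.82, 3.22 and 4.21 in fibroControl cells, a difference of -1.05 (-2.10 to 0.01). The groups overlapped for both. Ttn by 1444638_at differed by -1.02 (-2.20 to 0.15), Ldb3 by 1451999_at by 1.16 (-0.42 to 2.74), Tcap by -0.58 (-1.67 to 0.51) and Actn2 by 0.25 (-1.16 to 1.66).

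Mybpc3 was the member with the widest spread among fibroTIPeR cells. It read 8.82, 7.46, 9.83, 6.18 and 5.66 in fibroTIPeR cells 1 to 5, against 5.47, 6.08 and 7.99 in fibroControl cells. FibroTIPeR 1 and 3 lay above every fibroControl cell and above every fibroblast, but below the lowest cardiomyocyte at 10.63, and fibroTIPeR 4 and 5 lay among the controls. The fibroTIPeR mean was 7.59 ± 1.75 (SD, n = 5) and the fibroControl mean 6.51 ± 1.31 (SD, n = 3). They differed by 1.07 (-0.88 to 3.03, adjusted p = 0.88).

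The Mybpc3 level of a fibroTIPeR cell went with its 18S level. The mean 18S level of fibroTIPeR cells 1 to 5 was 12.38, 11.03, 13.48, 7.80 and 7.88, so the 3 cells with the most Mybpc3 were the 3 with the most 18S, in the same order. The fibroControl cells, with 18S at 12.08, 11.23 and 11.56, did not follow that order. With 5 cells no correlation was computed. Using fibroTIPeR 1 to 3 alone, which had 18S levels like those of fibroControl cells, Mybpc3 differed by 2.19 (adjusted p = 0.672), and using fibroTIPeR 4 and 5 alone by -0.59 (adjusted p = 0.836). The part of the 18S signal in the Mybpc3 level was not tested beyond these values.

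**Figure D3:**
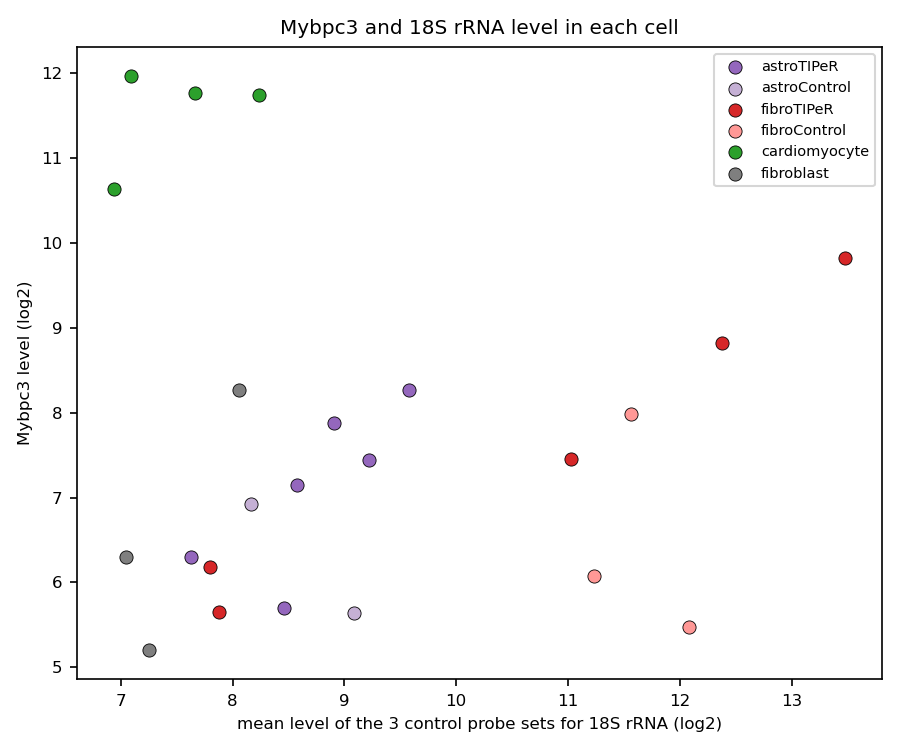
Mybpc3 level against the mean level of the 3 control probe sets for 18S rRNA (both log2, quantile normalized), 1 point per cell. The 5 fibroTIPeR cells run from 5.66 at low 18S to 9.83 at the highest 18S, the fibroControl cells lie between 5.47 and 7.99, and the 4 cardiomyocytes lie above 10.6 at low 18S.

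FibroTIPeR cells were next set against cardiomyocytes, the source of their transferred RNA. The 4 genes that marked cardiomyocytes were lower in fibroTIPeR cells by 2.97 to 5.12 log2 units, and each passed the test. That was 4 of 8 genes, where 0.561% of all genes passed in either direction and 25 of 18193 passed as lower. Without cardiomyocyte 3 it was 2, Myoz2 and Nebl, and without cardiomyocyte 4, the one with the higher fibroblast markers, it was 3, with Mybpc3 lost. Every fibroTIPeR cell lay below every cardiomyocyte for these 4 genes, as for 2.01% of all genes. This comparison and that of cardiomyocytes with fibroblasts share the 4 cardiomyocytes, so their calls are not independent.

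Myoz2 averaged 4.95 ± 0.65 (SD, n = 5) in fibroTIPeR cells and 10.08 ± 1.05 (n = 4) in cardiomyocytes, and the means differed by -5.12 (SE 0.83, adjusted p = 0.00171). Nebl averaged 4.74 ± 0.86 in fibroTIPeR cells and 8.82 ± 0.83 in cardiomyocytes, and the means differed by -4.08 (SE 0.68, adjusted p = 0.00201). Mybpc3 averaged 7.59 in fibroTIPeR cells and 11.53 ± 0.61 in cardiomyocytes, and the means differed by -3.94 (SE 0.87, adjusted p = 0.0312). Its call was lost without any 1 of the 4 cardiomyocytes (adjusted p 0.0539 to 0.1). Csrp3 averaged 4.55 ± 0.75 in fibroTIPeR cells and 7.51 ± 1.02 in cardiomyocytes, and the means differed by -2.97 (SE 0.59, adjusted p = 0.0127), lost without fibroTIPeR 3 (adjusted p = 0.0561) or cardiomyocyte 3 (0.0792).

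Of the 17 probe sets, 6 passed, each lower in fibroTIPeR cells, where 0.56% of all probe sets passed. Ttn by 1427445_a_at averaged 2.70 ± 0.61 in fibroTIPeR cells and 7.22 ± 0.73 in cardiomyocytes, and the means differed by -4.52 (SE 0.47, adjusted p = 2.49e-06), which ranked 6th by p among all probe sets. Ldb3 by 1416752_at averaged 4.48 ± 0.45 in fibroTIPeR cells and 8.28 ± 1.35 in cardiomyocytes, and the means differed by -3.81 (SE 0.54, adjusted p = 0.000328). Both calls held without each of the 23 cells. Ttn by 1444638_at was 1.89 lower on average and did not pass (adjusted p = 0.103), and Ldb3 by 1451999_at, Actn2 and Tcap differed by -0.58 to 0.21. Ttn by 1431928_at went the other way, at 3.95 in fibroTIPeR cells and 3.10 in cardiomyocytes, and did not pass (adjusted p = 0.507).

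With fibroTIPeR 4 and 5 alone, the cells whose 18S level was like that of cardiomyocytes, Myoz2, Nebl and Csrp3 differed from cardiomyocytes by -5.25, -4.16 and -3.30 and no longer passed (adjusted p 0.125, 0.125 and 0.161), while Mybpc3 differed by -5.61 and passed (adjusted p = 0.0202). With fibroTIPeR 1 to 3 alone, Mybpc3 differed by -2.83 (adjusted p = 0.0598), and Ttn by 1444638_at by -2.31 (adjusted p = 0.0246). With the 18S level as a covariate, Nebl and Csrp3 missed the threshold at differences of -4.28 and -3.04.

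Against fibroblasts without transfection, neither transfected group of fibroblasts had a member past the threshold. In fibroTIPeR cells 0.055% of all genes passed, and the largest difference among the probe sets chosen for the 8 genes was in Ldb3 by 1451999_at, 8.12 in fibroTIPeR and 9.27 in fibroblast cells (-1.14, adjusted p = 0.664). Of all 17 probe sets none passed either, where 0.00444% of all probe sets did, but 2 had larger differences. Nebl by 1439897_at averaged 3.13 in fibroTIPeR and 4.83 in fibroblast cells (-1.70, adjusted p = 0.388). Ttn by 1427445_a_at averaged 2.70 in fibroTIPeR and 3.92 in fibroblast cells (-1.22, adjusted p = 0.398), and it was the only 1 of the 17 with every fibroTIPeR cell below every fibroblast, as for 2.62% of all probe sets. In fibroControl cells 1.56% of all genes passed. There, Ldb3 by 1451999_at read 6.37, 7.54 and 6.98 in fibroControl cells, against 9.36, 9.44 and 8.996 in fibroblasts. The groups did not overlap, but the difference of -2.30 (SE 0.86) did not pass (adjusted p = 0.156). Every fibroControl cell lay below every fibroblast for 4 of the 17 probe sets, where 10.9% of all probe sets did so, and none of the 17 passed, where 1.32% did. All fibroControl cells had a high and all fibroblasts a low 18S level, so transfection and 18S level cannot be told apart in that comparison.

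Astrocytes gave no member past the threshold. In astroTIPeR against astroControl cells 0 of 8 genes passed, where 0.0495% of all genes did. No member had an unadjusted p under 0.05, as 1717 of 18193 genes did, a share at which none of 8 says little. Of the 17 probe sets 0 passed, where 0.127% of all probe sets did, and Ldb3 1433783_at alone had an unadjusted p under 0.05 (4.21 in astroTIPeR and 2.59 in astroControl cells, adjusted p = 0.427). With 2 control cells, the intervals were wide and 1 cell decided several values. The Gapdh control read at its 3′ end minus its 5′ end, a sign of RNA quality, gave 2.94 to 5.05 in astroTIPeR and 1.51 to 2.63 in astroControl cells, without overlap, and its part in these values was not tested.

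Myoz2 in astroTIPeR cells ran from 3.21 over a median of 4.56 to 6.51, against 3.51 and 8.39 in the 2 astroControl cells. AstroControl 2 was thus almost as high as the lowest cardiomyocyte, and the difference of -1.16 (-3.24 to 0.93) became 1.29 without it and -3.60 without astroControl 1. Mybpc3 ran from 5.70 over 7.30 to 8.26 in astroTIPeR cells, against 6.92 and 5.64 in astroControl cells, a difference of 0.84 (-1.34 to 3.02). Nebl by 1438452_at ran from 4.70 over 5.52 to 5.85 in astroTIPeR cells, against 5.12 and 3.64 in astroControl cells, a difference of 0.98 (-0.71 to 2.66). The groups overlapped for each of these genes. Without astroControl 1, another Nebl probe set, 1439897_at, passed at a difference of -3.25 (adjusted p = 0.0271), which rests on a level of 6.82 in astroControl 2 alone.

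Ttn by 1427445_a_at ran from 2.54 over 3.18 to 4.38 in astroTIPeR cells, against 3.09 and 3.97 in astroControl cells. Ldb3 by 1416752_at ran from 2.95 over 3.80 to 4.33 in astroTIPeR cells, against 3.85 and 3.64 in astroControl cells. The groups overlapped, no astrocyte reached the lowest cardiomyocyte, and the differences were -0.26 for Ttn and -0.03 for Ldb3. By 1451999_at, Ldb3 averaged 9.59 ± 0.64 (SD, n = 6) in astroTIPeR and 9.76 ± 0.47 (n = 2) in astroControl cells, the highest group means of that probe set. The difference of the transfer effect between fibroblasts and astrocytes passed for 0 of the 8 genes, where 0% of all genes passed (limma). Before adjustment 1392 of 18193 genes reached 0.05 and no member did, a share at which none of 8 says little.

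**Figure D4:**
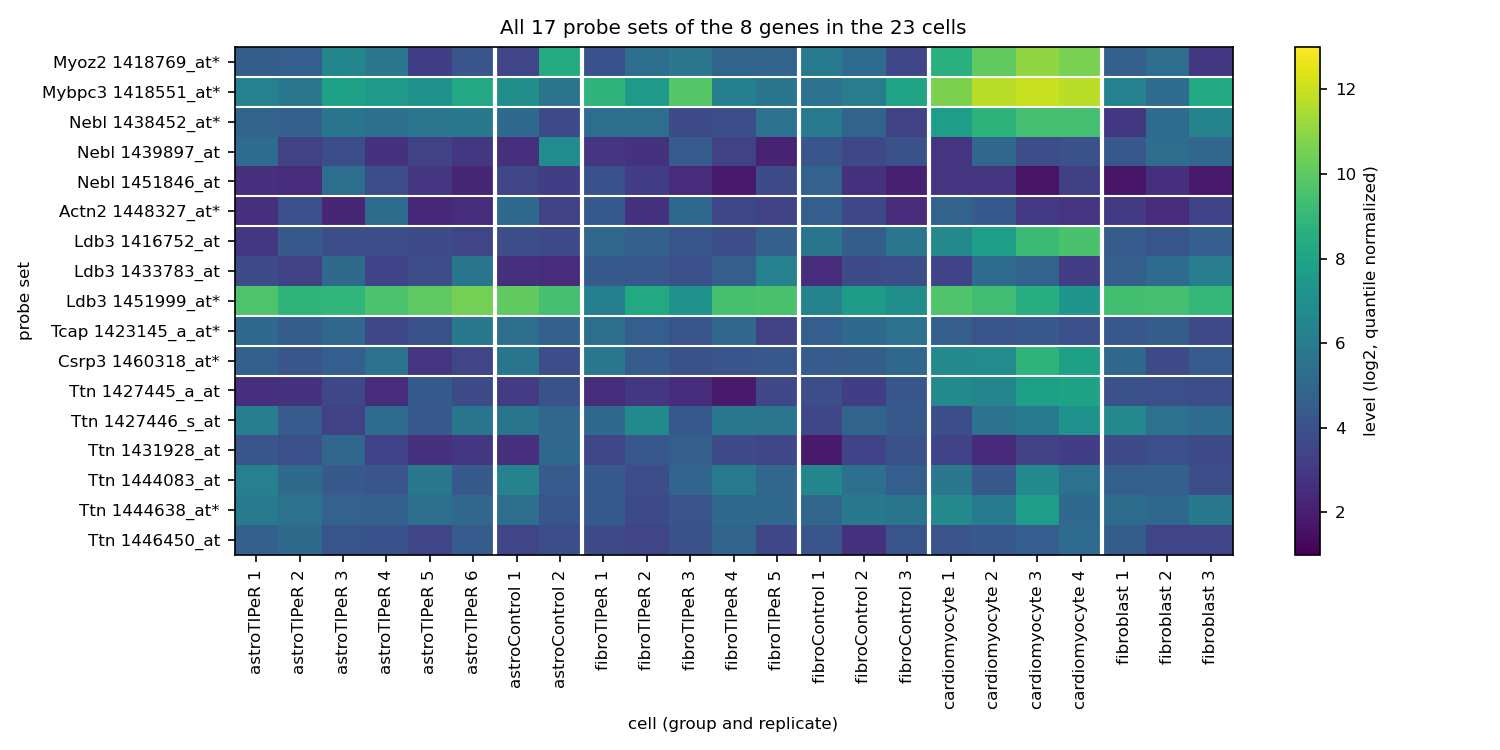
Level of all 17 probe sets (rows; an asterisk marks the one used for the gene) in the 23 cells (columns), on a colour scale of log2 levels. Myoz2, Mybpc3, Nebl 1438452_at, Ldb3 1416752_at, Csrp3 and Ttn 1427445_a_at are brighter in the cardiomyocyte columns, and Ldb3 1451999_at is bright in columns of every group.

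Ordered by group mean, cardiomyocytes stood first for Myoz2, Mybpc3, Nebl by 1438452_at, Csrp3, Ldb3 by 1416752_at and Ttn by 1444638_at and 1427445_a_at. By small margins they also stood first for Ttn by 1444083_at (5.573, next fibroControl at 5.502) and 1446450_at (4.545, next astroTIPeR at 4.336). For the remaining probe sets they did not, among them Ttn by 1427446_s_at, where fibroblasts averaged more. For Myoz2, the next groups were astroControl (5.95), fibroTIPeR (4.95), fibroControl (4.92), astroTIPeR (4.79) and fibroblast (4.31), which lay within the spread of the 2 astroControl cells. For Mybpc3, the next were fibroTIPeR (7.59), astroTIPeR (7.12), fibroblast (6.59), fibroControl (6.51) and astroControl (6.28), neighbours that differed by less than the SD within the groups. Ldb3 by 1451999_at had another order, with astroControl, astroTIPeR, fibroblast and cardiomyocyte at 8.70 to 9.76, fibroTIPeR at 8.12 and fibroControl at 6.96.

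Over the 15 fibroblast and cardiomyocyte cells, the levels of Myoz2, Mybpc3, Nebl and Csrp3 correlated with each other at r between 0.719 and 0.846. Of these cells 4 were cardiomyocytes that stood apart, so the values describe that split as much as any variation among like cells. The genes most like them over the same cells, among 9093 genes above the median level, are given here as a description. That level was the mean over all 23 cells, so a gene high in cardiomyocytes alone could enter through them. Tnni3 did so, with group means of 11.96 in cardiomyocytes and at most 5.05 elsewhere. Myoz2 was closest to Tnni3, cardiac troponin I (r = 0.949), and to the lipoprotein lipase Lpl (0.893). Nebl was closest to Tnni3 (0.918) and the alpha myosin heavy chain Myh6 (0.873). Csrp3 was closest to Tnni3 (0.876) and the myosin light chain Myl3 (0.871). Mybpc3 was closest to the calcium pump Atp2a2 (0.923) and to Cpeb3, an RNA-binding translation regulator (0.896).

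The group means of Atp2a2 were 8.71 in fibroTIPeR, 4.54 in fibroControl, 12.55 in cardiomyocyte and 7.04 in fibroblast cells. Its levels ran from 6.41 to 10.85 in fibroTIPeR cells and from 5.11 to 10.6 in fibroblasts, which overlapped. No test of Atp2a2 is given here. The other 4 genes were closest to genes outside the sarcomere. Ldb3 by 1451999_at was closest to Prr18 (0.944), Tcap to Plaat5 (0.824), Ttn by 1444638_at to Gtpbp10 (0.808) and Actn2 to the chaperonin subunit Cct6a (0.76).

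Other genes of the same structures were counted by list. Of 19 Z-disc partners 18 were measured, and none passed in any of the 7 comparisons, where 0% to 1.56% of all genes did. At such shares, none of 18 says little about these genes. Among them Nexn, an actin-binding Z-disc protein, came nearest, with 5.07 in fibroTIPeR cells and 7.61 in cardiomyocytes (-2.54, adjusted p = 0.0782). Of 14 titin and M-band partners 12 were measured and none passed, which says as little at the same shares. The 2 with the smallest p in cardiomyocytes against fibroblasts were Myom2, an M-band protein, and the ubiquitin ligase Trim63. Myom2 averaged 4.94 in cardiomyocytes against 6.95 in fibroblasts (adjusted p = 0.378), and Trim63 3.97 in cardiomyocytes against 2.38 in fibroblasts (adjusted p = 0.43).

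All 9 thick filament relatives and assembly factors were measured, and none passed, which again says little at the shares given for all genes. Lmod2, which elongates actin filaments in heart, averaged 7.77 in cardiomyocytes and 4.36 in fibroblasts (3.40, adjusted p = 0.145), and Mybphl, a relative of Mybpc3, 11.11 in cardiomyocytes and 8.55 in fibroblasts (2.56, adjusted p = 0.151). Mybpc1, the slow skeletal paralogue of Mybpc3, averaged 8.21 in fibroTIPeR, 10.43 in fibroControl, 4.01 in cardiomyocyte and 5.27 in fibroblast cells, and was not past the threshold in fibroControl against fibroblast cells (adjusted p = 0.0679). The median differences of these 3 lists in cardiomyocytes against fibroblasts were 0.11, -0.07 and 0.41, against 0.09 over all genes.

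Of 5 paralogues known from other tissues, Actn1, the alpha-actinin of non-muscle cells, was lower in cardiomyocytes, with a mean of 5.29 ± 1.13 (SD, n = 4) against 11.85 ± 2.03 (n = 3) in fibroblasts (-6.56, SE 1.01, adjusted p = 0.00199). It was higher in fibroTIPeR cells, with 11.86 ± 1.74 (n = 5), than in cardiomyocytes (6.57, SE 0.89, adjusted p = 0.000154), and fibroControl cells averaged 10.82 ± 0.95 (n = 3). Actn3, Actn4, Csrp1 and Csrp2 passed in none of the 7 comparisons, which says little at the shares given for all genes. Among the alpha-actinins, Actn1 thus passed in both comparisons with cardiomyocytes and Actn2 in neither. The only Actn2 probe set read low in every group, with means from 2.99 in fibroblasts to 4.23 in astroControl cells. Its result therefore does not show that the Actn2 transcript is alike in these cells.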

How the data were processed

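The deposited table holds log2 expression values per probe set, made by the authors, as judged from their range; the sources used here do not name the summarization or normalization software. The members and the gene lists were chosen with earlier results of these data known. Of 45101 probe sets, 64 were controls, 34945 carried 1 gene symbol, 932 several and 9160 none. Column medians differed by 1.29, more than the 1 log2 unit allowed, so the 23 columns were quantile normalized together. The probe set of highest mean stood for a gene. All genes, and in a second fit all probe sets other than controls, entered limma 3.58.1 (R 4.3.3), with lmFit on 6 group means and eBayes with a trend, two-sided, with Benjamini-Hochberg adjustment over all features and a threshold of 0.05. No 2 columns were identical. The named genes were the 8 members, the 2 genes most like each, and listed partners past the threshold or otherwise the 2 of smallest p. Alternatives were the deposited values, normalization within array sets, the mean of probe sets, all probe sets, a level filter, the 18S covariate, a term for the replicate number, and leaving out each cell; fits on part of the fibroTIPeR cells and the alternatives of the probe-set fit were chosen after seeing the data. The steps were checked on simulated data first. The number of arrays limits the precision. Figures were drawn with matplotlib 3.10.9.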

Additional observations from a re-analysis of the deposited data

Results flagged for a closer look

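One value stood far from its group. Csrp3 read 5.84 in fibroTIPeR 1, while the other 4 fibroTIPeR cells lay between 3.98 and 4.49. It was below the lowest cardiomyocyte at 6.63. Over the 17 probe sets, 51 groups of 4 to 6 cells were examined, and chance flags about 1 in 20 groups, so a single such value is fewer than chance would give.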

How the results depend on the processing

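The cause of each change listed here was not tested. No member whose difference passed in the reported fit changed sign under any setting or without any cell. The 7 comparisons had reported counts of 41 (cardiomyocyte minus fibroblast), 1, 10 and 283 (fibroTIPeR minus fibroControl, fibroTIPeR minus fibroblast, fibroControl minus fibroblast), 102 (fibroTIPeR minus cardiomyocyte), 9 (astroTIPeR minus astroControl) and 0 genes, and these counts moved with the settings. With the values as deposited, genes past the threshold numbered 21 in cardiomyocyte minus fibroblast, 135 in fibroControl minus fibroblast and 72 in astroTIPeR minus astroControl. The sign turned for Csrp3 in fibroTIPeR minus fibroblast (-0.00793), Ttn in fibroControl minus fibroblast (-0.0176) and Actn2 in fibroTIPeR minus cardiomyocyte (-0.0779). With normalization within each array set, genes past the threshold numbered 2 in fibroTIPeR minus fibroblast, 156 in fibroControl minus fibroblast, 87 in astroTIPeR minus astroControl and 1 in the difference between recipient types and member probe sets past it numbered 3 in cardiomyocyte minus fibroblast. With a gene's probe sets averaged, genes past the threshold numbered 18 in cardiomyocyte minus fibroblast, 3 in fibroTIPeR minus fibroControl, 3 in fibroTIPeR minus fibroblast, 5 in astroTIPeR minus astroControl and 2 in the difference between recipient types and members past it numbered 2 in cardiomyocyte minus fibroblast. The sign turned for Ldb3 in cardiomyocyte minus fibroblast (0.723), Nebl in fibroControl minus fibroblast (0.0349), Ttn in fibroControl minus fibroblast (-0.221), Nebl in astroTIPeR minus astroControl (-0.0945), Ldb3 in astroTIPeR minus astroControl (0.475) and Ttn in astroTIPeR minus astroControl (-0.0331). With every probe set tested, features past the threshold numbered 2 in fibroTIPeR minus fibroblast, 596 in fibroControl minus fibroblast, 252 in fibroTIPeR minus cardiomyocyte and 57 in astroTIPeR minus astroControl. With genes above the median level only (3 of the 8 members), genes past the threshold numbered 0 in fibroTIPeR minus fibroControl, 1 in fibroTIPeR minus fibroblast, 173 in fibroControl minus fibroblast and 4 in astroTIPeR minus astroControl. Members past it numbered 2 in cardiomyocyte minus fibroblast and 2 in fibroTIPeR minus cardiomyocyte. That filter used the mean over all 23 cells. Myoz2, with a mean of 5.80, was kept through the cardiomyocytes at 10.08, and no other group averaged above 5.95. Its calls under this filter are therefore no separate support. With the 18S level as a covariate, genes past the threshold numbered 71 in cardiomyocyte minus fibroblast, 3 in fibroTIPeR minus fibroControl, 0 in fibroTIPeR minus fibroblast, 0 in fibroControl minus fibroblast, 12 in fibroTIPeR minus cardiomyocyte and 20 in astroTIPeR minus astroControl, members past it numbered 2 in fibroTIPeR minus cardiomyocyte and member probe sets past it numbered 3 in fibroTIPeR minus cardiomyocyte. The sign turned for Nebl in fibroTIPeR minus fibroControl (0.0664), Mybpc3 in fibroTIPeR minus fibroblast (-1.06), Ldb3 in fibroTIPeR minus fibroblast (0.289), Actn2 in fibroControl minus fibroblast (-0.303), Actn2 in fibroTIPeR minus cardiomyocyte (-0.595) and Ldb3 in fibroTIPeR minus cardiomyocyte (0.836). With the replicate number as a term (replicate block), genes past the threshold numbered 163 in fibroControl minus fibroblast and 3 in astroTIPeR minus astroControl and members past it numbered 2 in cardiomyocyte minus fibroblast. The sign turned for Csrp3 in fibroTIPeR minus fibroControl (0.00697). With fibroTIPeR 4 and 5 alone, genes past the threshold numbered 161 in fibroTIPeR minus fibroControl, 0 in fibroTIPeR minus fibroblast and 9 in fibroTIPeR minus cardiomyocyte and members past it numbered 1 in fibroTIPeR minus cardiomyocyte. The sign turned for Myoz2 in fibroTIPeR minus fibroControl (-0.0931), Mybpc3 in fibroTIPeR minus fibroControl (-0.595), Actn2 in fibroTIPeR minus fibroControl (-0.085), Mybpc3 in fibroTIPeR minus fibroblast (-0.669), Ldb3 in fibroTIPeR minus fibroblast (0.267), Csrp3 in fibroTIPeR minus fibroblast (-0.178), Actn2 in fibroTIPeR minus cardiomyocyte (-0.287), Ldb3 in fibroTIPeR minus cardiomyocyte (0.829) and Tcap in fibroTIPeR minus cardiomyocyte (-0.0886). With fibroTIPeR 1 to 3 alone, genes past the threshold numbered 0 in fibroTIPeR minus fibroControl, 610 in fibroTIPeR minus fibroblast and 1056 in fibroTIPeR minus cardiomyocyte. The sign turned for Nebl in fibroTIPeR minus fibroControl (0.0451) and Csrp3 in fibroTIPeR minus fibroControl (0.0813). With 1 cell left out, genes past the threshold ran from 11 to 84 in cardiomyocyte minus fibroblast, 1 to 17 in fibroTIPeR minus fibroControl, 0 to 72 in fibroTIPeR minus fibroblast, 42 to 469 in fibroControl minus fibroblast, 40 to 269 in fibroTIPeR minus cardiomyocyte, 4 to 543 in astroTIPeR minus astroControl and 0 to 237 in the difference between recipient types. Members past it ran from 1 to 4 in cardiomyocyte minus fibroblast and 2 to 4 in fibroTIPeR minus cardiomyocyte, and member probe sets from 3 to 6 in cardiomyocyte minus fibroblast and 0 to 1 in astroTIPeR minus astroControl. Differences that took both signs ran in fibroTIPeR minus fibroblast from -0.171 to 0.462 for Csrp3, -1.05 to 0.665 for Nebl and -0.0392 to 1.13 for Myoz2. They ran in fibroTIPeR minus cardiomyocyte from -0.26 to 0.395 for Actn2. They ran in fibroTIPeR minus fibroControl from -0.646 to 0.569 for Myoz2, -0.704 to 0.62 for Nebl, -0.283 to 0.765 for Actn2 and -0.464 to 0.0328 for Csrp3. They ran in fibroControl minus fibroblast from -0.811 to 0.765 for Mybpc3, -0.0501 to 0.408 for Ttn, -1.04 to 0.671 for Nebl, -0.0293 to 0.603 for Csrp3 and -0.0716 to 1.29 for Myoz2. They ran in cardiomyocyte minus fibroblast from -0.119 to 0.329 for Tcap. They ran in astroTIPeR minus astroControl from -0.495 to 0.17 for Ldb3, -0.655 to 0.00391 for Tcap, -1.44 to 0.405 for Csrp3, -3.6 to 1.29 for Myoz2, -0.102 to 1 for Ttn, -0.153 to 0.124 for Ldb3 1416752_at and -0.692 to 0.179 for Ttn 1427445_a_at. Whether numbers shared between groups pair the cells was not settled. The deviations of same-numbered cells from their group means correlated at -0.341 to 0.285 over 18 pairs, 5 of them over 0.1. These means rest on 2 to 6 cells and the same cells recur in several pairs, so the values cannot exclude pairing. Under the replicate block Nebl and Csrp3 missed in cardiomyocyte minus fibroblast (adjusted p = 0.0679 each). A group left with 1 astroControl cell borrows its spread from the other groups. The number of cells per group and the lack of a detection call limit what these arrays can show.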
